A study of Mus musculus with 4 samples.

Results

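The proteasome genes described here are the mouse genes whose symbol is Psm followed by a letter from a to g and a number: the subunits of the 20S core and the 19S cap, the other regulatory caps, and factors that help to assemble them. The rule found 48 symbols, in 54 transcript rows, among the 24063 symbols and 33984 rows of the tables. Of these, 5 genes make up the immunoproteasome set (Psmb8, Psmb9, Psmb10, Psme1 and Psme2), and the other 43 are called standard. The study engineered mice to overexpress MYC, a growth-promoting transcription factor, together with PMEPA1, a membrane protein that dampens TGF-beta signalling, and examined the liver cancers that formed. The 4 libraries, tumours 1, 5, 9 and 10, are poly-A RNA from untreated tumours with the genotype label MYC;PMEPA1 in mice of the strain C57BL/6 (C57BL6/J in the sample titles), made by hydrodynamic tail vein delivery, a fast injection that brings plasmid mainly to hepatocytes. They form 1 group of 4 with no control tumour and no normal liver, so the spread between tumours is the measurement, and no level here can be ascribed to either gene. The labels used here give no age, and neither the promoter nor the species of the delivered sequences; they add a passage count of 8 to 10, a culture term, and are silent on whether each tumour comes from its own mouse, so the spread and any p-value may be partly technical.

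The proteasome is the main protease of the cytosol and nucleus and degrades proteins marked with ubiquitin. Its 20S core is a barrel of stacked alpha and beta rings, and 3 of the beta subunits (Psmb5, Psmb6 and Psmb7) cut proteins. The 19S cap binds ubiquitin chains, unfolds the substrate with a ring of ATPases and feeds it into the core. Interferon gamma induces 3 alternative cutting subunits, Psmb8 (LMP7), Psmb9 (LMP2) and Psmb10 (MECL-1), which replace Psmb5, Psmb6 and Psmb7 in newly built cores, and it also induces Psme1 and Psme2, which form the PA28 alpha-beta cap. Cores of that kind favour peptides suited to MHC class I molecules. In hepatocytes the standard core prevails, while leukocytes carry much of the immunoproteasome of a healthy liver.

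Gene counts totalled 51939623, 41547938, 48931408 and 41948878 reads in tumours 1, 5, 9 and 10, where 3 reads correspond to 0.0524, 0.0700, 0.0558 and 0.0892 counts per 1000000 reads (CPM, scaled by TMM). Such limits cover counting error only. Genes averaging 1 CPM or more over the tumours were taken as expressed, which holds for 13129 genes and for 46 of the 48 members, 5 immunoproteasome and 41 standard. The remaining 2 have tissue-restricted roles. Psma8, the testis form of an alpha subunit, had 0.0699, 0.187, 0.223 and 0.357 CPM. Psmb11, the thymus form of a catalytic subunit, had 2 reads in tumour 1 and 0 in the other tumours, at or under the level of 3 reads. Every expressed member had at least 1.63 CPM in every tumour, so none passed the filter through 1 tumour alone.

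The cutting subunits lie at the following places in GRCm38 (GENCODE M21). Psmb8 (chr17:34197721-34201454, plus strand) and Psmb9 (chr17:34181987-34187764, minus strand) are neighbours in the MHC region, and Psmb10 (chr8:105935735-105938444, minus strand) is elsewhere. Their standard counterparts Psmb5 (chr14:54614119-54618022, minus), Psmb6 (chr11:70525367-70527858, plus) and Psmb7 (chr2:38588036-38644087, minus) sit on 3 different chromosomes. Psme1 (chr14:55578123-55581529, plus) and Psme2 (chr14:55587441-55591113, minus) lie close to each other, and Psme3 (chr11:101316213-101323537, plus) encodes the subunit of the other PA28 cap, PA28 gamma, which is found in the nucleus.

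Promoters were read because NRF1, the main factor for induced transcription of proteasome genes, and interferon-activated factors bind different short motifs. RefSeq promoter windows (GRCm38.p6), the 250 bases before a start site, were at hand for 40 of the 48 members, 5 immunoproteasome and 35 standard, and were searched on both strands. The antioxidant response element core, TGACNNNGC, which NRF1 and its relative NRF2 bind, was present in 0 of 5 immunoproteasome and 5 of 35 standard genes (Psmb5, Psmb6, Psmc6, Psmd12 and Psmd9), or 14.3%, against 11.5% of the 27025 genes with a window. The 3 shown next are those of the 2 standard cutting subunits that hold it and of Psmd9, the standard gene with the widest spread between tumours. Capitals mark the motif letters: the antioxidant core in each, and in Psmd9 also an interferon response core and an E-box, further from the start site and not overlapping it.
Psmb5, chr14:54617996-54618245, minus strand: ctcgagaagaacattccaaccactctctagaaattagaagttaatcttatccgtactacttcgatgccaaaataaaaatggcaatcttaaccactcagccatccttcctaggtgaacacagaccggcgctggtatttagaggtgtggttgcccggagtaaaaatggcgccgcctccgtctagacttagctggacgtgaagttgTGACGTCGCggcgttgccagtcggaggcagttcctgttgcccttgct
Psmb6, chr11:70525107-70525356, plus strand: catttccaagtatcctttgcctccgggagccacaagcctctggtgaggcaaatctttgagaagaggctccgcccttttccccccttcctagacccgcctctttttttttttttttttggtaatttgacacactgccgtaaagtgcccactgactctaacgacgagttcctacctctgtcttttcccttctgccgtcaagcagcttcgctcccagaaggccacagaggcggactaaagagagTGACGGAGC
Psmd9, chr5:123227940-123228189, plus strand: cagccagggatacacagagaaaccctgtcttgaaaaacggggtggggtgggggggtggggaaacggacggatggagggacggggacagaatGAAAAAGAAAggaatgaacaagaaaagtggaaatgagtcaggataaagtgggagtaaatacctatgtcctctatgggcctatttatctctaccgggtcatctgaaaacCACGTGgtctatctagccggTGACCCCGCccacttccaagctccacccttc

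The core lies 47 to 39 bases before the start of Psmb5, 9 to 1 before that of Psmb6 and 31 to 23 before that of Psmd9. None of the 3 immunoproteasome cutting subunits holds it in its window, and each holds a different other motif, shown with its surroundings.
Psmb8, STAT site TTCNNNGAA, chr17:34198088-34198117, plus strand: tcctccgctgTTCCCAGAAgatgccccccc
Psmb9, CCAAT box on the opposite strand, chr17:34187331-34187350, minus strand: gcgcagccgctgATTGGaaa
Psmb10, E-box CACGTG, chr8:105938491-105938520, minus strand: gttcccaacgccCACGTGgtggcacgccca

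The other motifs were counted in the same windows. The STAT site was in 1 of 5 immunoproteasome and 1 of 35 standard genes, against 8.13% of all genes with a window. The E-box, which MYC can bind, was in 1 of 5 (Psmb10) and 3 of 35 (Psma4, Psmd9 and Psme3), against 6.86%. The interferon response core was in 0 of 5 and 3 of 35 (Psmb3, Psmd4 and Psmd9), against 3.46%. The CCAAT box, a general promoter motif, was in 1 of 5 and 13 of 35, against 37.5%. The RefSeq start sites of Psmb8 and Psmb9 lie inside the GENCODE gene spans given above, so the stretches shown for both fall within those spans, and all 250 bases of each window overlap GENCODE exons, against 52 bases for Psmb10, 27 for Psmb5 and 0 for Psmb6 and Psmd9. A match is a string of letters, not a bound site, and sequence outside these windows was not read.

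The immunoproteasome cutting subunits differed several-fold between tumours and were highest in tumour 10. In bulk tumours, more cells of one type and more RNA per cell cannot be told apart. Psmb8, the alternative to Psmb5 for the chymotrypsin-like activity, had 5.36, 3.39, 11.6 and 24.2 CPM in tumours 1, 5, 9 and 10, from 307, 145, 621 and 815 reads. Psmb9, the alternative to Psmb6, followed the same order, with 1.99, 1.63, 4.47 and 9.37 CPM from 114, 70, 240 and 315 reads. For both genes tumour 5 was lowest, tumour 9 was second and tumour 10 highest, 7.16 and 5.73 times tumour 5. Psmb10, the alternative to Psmb7 for the trypsin-like activity, had 49.8, 54.5, 55.4 and 135.5 CPM. In this gene tumours 1, 5 and 9 lay close together and tumour 10 stood at 2.72 times tumour 1.

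The 2 genes of the interferon-induced cap had the same high tumour. Psme1 had 104, 121, 125 and 261 CPM in tumours 1, 5, 9 and 10, and Psme2 had 56.2, 76.8, 55.9 and 120.0 CPM. Tumour 10 was 2.50 times the lowest tumour for Psme1 and 2.15 times for Psme2. The near copy Psme2b had 8.49, 8.99, 8.15 and 16.7 CPM, and reads may be shared between it and Psme2. All 5 immunoproteasome genes were thus highest in tumour 10, where 35.8% of all expressed genes had their highest value. Their median deviation from each gene's 4-tumour mean was -0.45, -0.30, -0.19 and 1.01 log2 units in tumours 1, 5, 9 and 10. The same median over all expressed genes was -0.0087, -0.0013, -0.037 and 0.018. With only 5 genes in the set, this is a description of these tumours.

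Standard cutting subunits varied less. Psmb5, the chymotrypsin-like subunit, had 126, 146, 125 and 182 CPM in tumours 1, 5, 9 and 10. Psmb6, the caspase-like subunit, had 149.6, 178, 148 and 205 CPM, and Psmb7, the trypsin-like one, had 164, 209.9, 185 and 234 CPM. The 3 shared an order in which tumour 10 was highest and tumour 5 second, at 1.39 to 1.46 times between the highest and the lowest tumour.

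Set against their counterparts per kilobase of transcript, the alternative cutting subunits were lower in every tumour. Psmb8 made up 2.93, 1.62, 6.17 and 8.64% of the summed Psmb8 and Psmb5 level in tumours 1, 5, 9 and 10. Psmb9 made up 1.68, 1.17, 3.74 and 5.55% of its pair with Psmb6. Psmb10 took a larger part of its pair with Psmb7, 18.8, 16.5, 18.6 and 30.6%. Thus 2 of the 3 alternative subunits were a few percent of their pair, while Psmb10 was well above that in its own. The mean log2 difference, alternative minus standard, was -4.57 ± 1.12 for Psmb8, -5.24 ± 1.05 for Psmb9 and -1.94 ± 0.52 for Psmb10 (SD, n = 4 tumours each). An exact two-sided sign-flip test gave p = 0.13 for each, the smallest that 4 tumours allow, and 0.156 after Benjamini-Hochberg adjustment over 5 pairs, with the alternative lower in 4 of 4 tumours.

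The cap genes had another order. Psme1 minus Psme3 was 1.0 ± 0.70 log2 units per kilobase (SD, n = 4), higher in 4 of 4 tumours, with an exact sign-flip p of 0.13 (0.156 adjusted). Psme2 minus Psme3 was 0.17 ± 0.51 (SD, n = 4), with an exact p of 0.625 (0.625 adjusted), and was positive in 2 of 4 tumours, with a mean of -0.056 without tumour 10 and of 1.17 when the counts of both Psme2 rows, which nearly repeat each other, were summed. Psme3 itself had 198, 254, 134 and 196 CPM in tumours 1, 5, 9 and 10, so tumour 9 was lowest and tumour 5 highest. Both directions depend on the length term: without dividing by length the 2 differences were -0.42 and -1.38, because the Psme3 row is 2619 bases long and those of Psme1 and Psme2 are 977 and 897. Within each of the 5 pairs the difference was highest in tumour 10, a comparison inside 1 library that scaling between libraries cannot move.

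**Figure D1:**
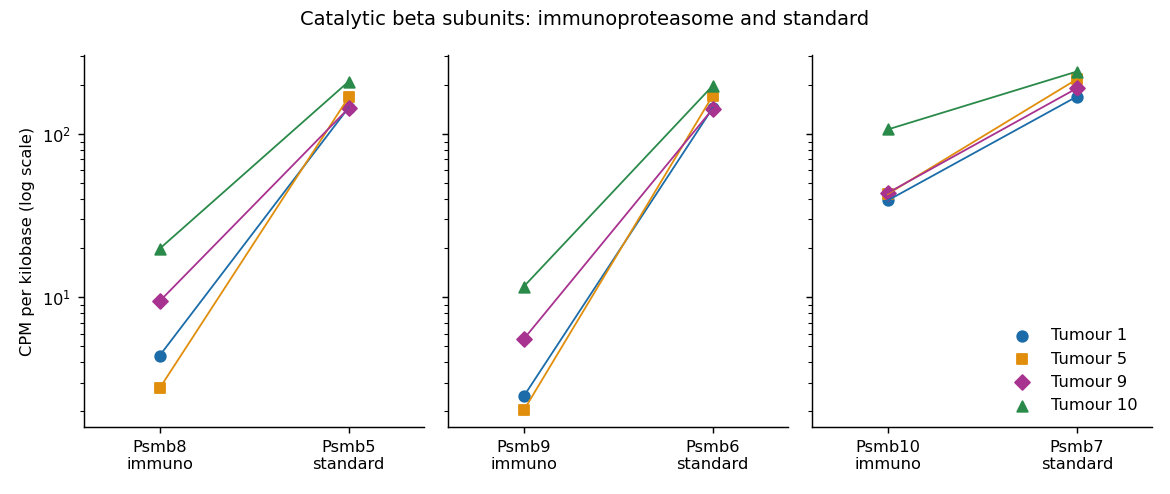
Level of each alternative cutting subunit (left in each panel) and of its standard counterpart (right), in CPM per kilobase of transcript on a log axis, with 1 line per tumour. The alternative subunits lie below their counterparts in all 4 tumours, and the gap is smallest in tumour 10, where Psmb10 made up 30.6% of its pair.

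The standard core subunits were among the more abundant members per kilobase. Over the 4 tumours, the 14 expressed standard core genes had means of 118 to 253 CPM per kilobase, with Psmb4, a structural beta subunit, at the top of all members. Psme1, at a mean of 156 CPM per kilobase, lay within that range. Psmb4 had 188, 226, 225 and 319 CPM in tumours 1, 5, 9 and 10, and Psmb3, another structural beta subunit, had 108, 142, 115 and 192 CPM. All 4 structural beta subunits (Psmb1 to Psmb4) were highest in tumour 10. Psmb2 was among the steadiest members, at 98.1, 103, 91.4 and 106 CPM.

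Alpha subunits form the outer rings and the gate of the core. Of the 7 expressed, 4 were highest in tumour 5 and 3 in tumour 10, and 6 had an SD under the median of all genes. The exception was Psma7, with 147, 196, 172 and 349 CPM in tumours 1, 5, 9 and 10. It was 2.38 times higher in tumour 10 than in tumour 1. Psma4, with 125, 148, 164 and 239 CPM, had the same high and low tumours. By contrast, Psma1, at 159.9, 176, 141 and 137 CPM, was lowest in tumour 10. The level of Psma7 per kilobase depends on the row: the chosen one (1591 bases) gives 136 CPM per kilobase and a second row (952 bases) with nearly the same CPM gives 225, so its place among core subunits is uncertain.

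Subunits of the 19S cap, all 17 of them expressed, had means of 51.2 to 134 CPM per kilobase, a range that overlaps that of the core: Psmc1 (134) and Psmd3 (126) were above Psmb2 (118), Psma5 (119) and Psma1 (122). The ratio of the median cap level to the median core level was 0.561, 0.557, 0.517 and 0.432 in tumours 1, 5, 9 and 10. It was thus lowest in tumour 10, where the core median was 199.98 CPM per kilobase, against 135, 158 and 143 in tumours 1, 5 and 9. Under TMM scaling, 14 of the 17 cap genes were lowest in tumour 9, where 25.5% of all expressed genes had their lowest value. Of the 6809 expressed genes within the range of mean CPM of the standard members, 2111 were lowest there. The tumour 9 low depends on scaling. As a share of the gene counts, the cap genes together took 0.274, 0.291, 0.239 and 0.237% in tumours 1, 5, 9 and 10.

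Within the cap, the lid cuts ubiquitin chains off the substrate, and under TMM scaling its genes had tumour 9 in common. All 8 lid genes were then lowest in tumour 9. All 8 also lay above their own 4-tumour mean in tumour 5, as did 49.9% of all genes. By total counts the low tumour was not shared by all 8. Psmd7, for instance, had 7446 reads in tumour 9 and 4772 in tumour 10, where they were also a smaller part of the library. Psmd14, the deubiquitinase of the lid, had 87.3, 107, 69.8 and 95.3 CPM in tumours 1, 5, 9 and 10. Psmd7, its catalytically inactive partner, had 211, 230.2, 139 and 142 CPM, so tumours 9 and 10 were both low. Psmd8 had 137, 211, 134 and 223 CPM, which puts tumours 5 and 10 above tumours 1 and 9.

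The base holds the ATPase ring (Psmc1 to Psmc6) and scaffold and ubiquitin-binding subunits. Psmc1 had 183, 197, 198 and 221 CPM and Psmc6 had 108, 116, 98.3 and 106 CPM, a narrow range in both. Psmc5 was the widest of the ATPases, at 125, 130.3, 106 and 201 CPM in tumours 1, 5, 9 and 10. Psmd1, a large scaffold subunit, had the smallest spread of all members, 173, 187, 166 and 168 CPM, an SD of 0.08 log2 units, and 1.20% of expressed genes had a smaller one. Psmd2, the other scaffold, was wider, at 313, 319, 219 and 399 CPM. Psmd4, a ubiquitin receptor, had 102, 119, 116 and 169 CPM.

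In mean CPM per kilobase, the assembly factors among the members were less abundant than the subunits they help to build. In CPM, Psmd9 passed some base subunits within a tumour, such as Psmc6 in tumour 10 (106 CPM). The assembly factors did not share a direction. Psmd9, a chaperone of the base, had 59.5, 81.8, 111 and 171 CPM in tumours 1, 5, 9 and 10, the widest spread of any standard member (SD 0.65 log2 units). Psmd5 and Psmd10, chaperones of the same complex, had 49.3, 52.0, 31.1 and 39.8 CPM and 20.4, 24.4, 21.1 and 23.4 CPM. Among chaperones of the core, Psmg1 was highest in tumour 10 at 116 CPM, against 70.1, 77.4 and 69.1 CPM in tumours 1, 5 and 9. Psmg3 was low there, with 45.5, 57.4, 29.7 and 30.3 CPM, and Psmg4 was nearly level, with 24.8, 28.3, 25.9 and 27.4 CPM. Psmg2 had 46.2, 50.0, 54.6 and 71.0 CPM.

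The remaining caps and the inhibitor also went separate ways. Psme4 (PA200), a nuclear activator, was highest in tumour 1, the only member to be so under TMM scaling, with 119, 111, 79.2 and 72.9 CPM. Psmf1 (PI31), named for its inhibition of the core in vitro, had 34.1, 38.5, 47.9 and 82.3 CPM in tumours 1, 5, 9 and 10.

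**Figure D2:**
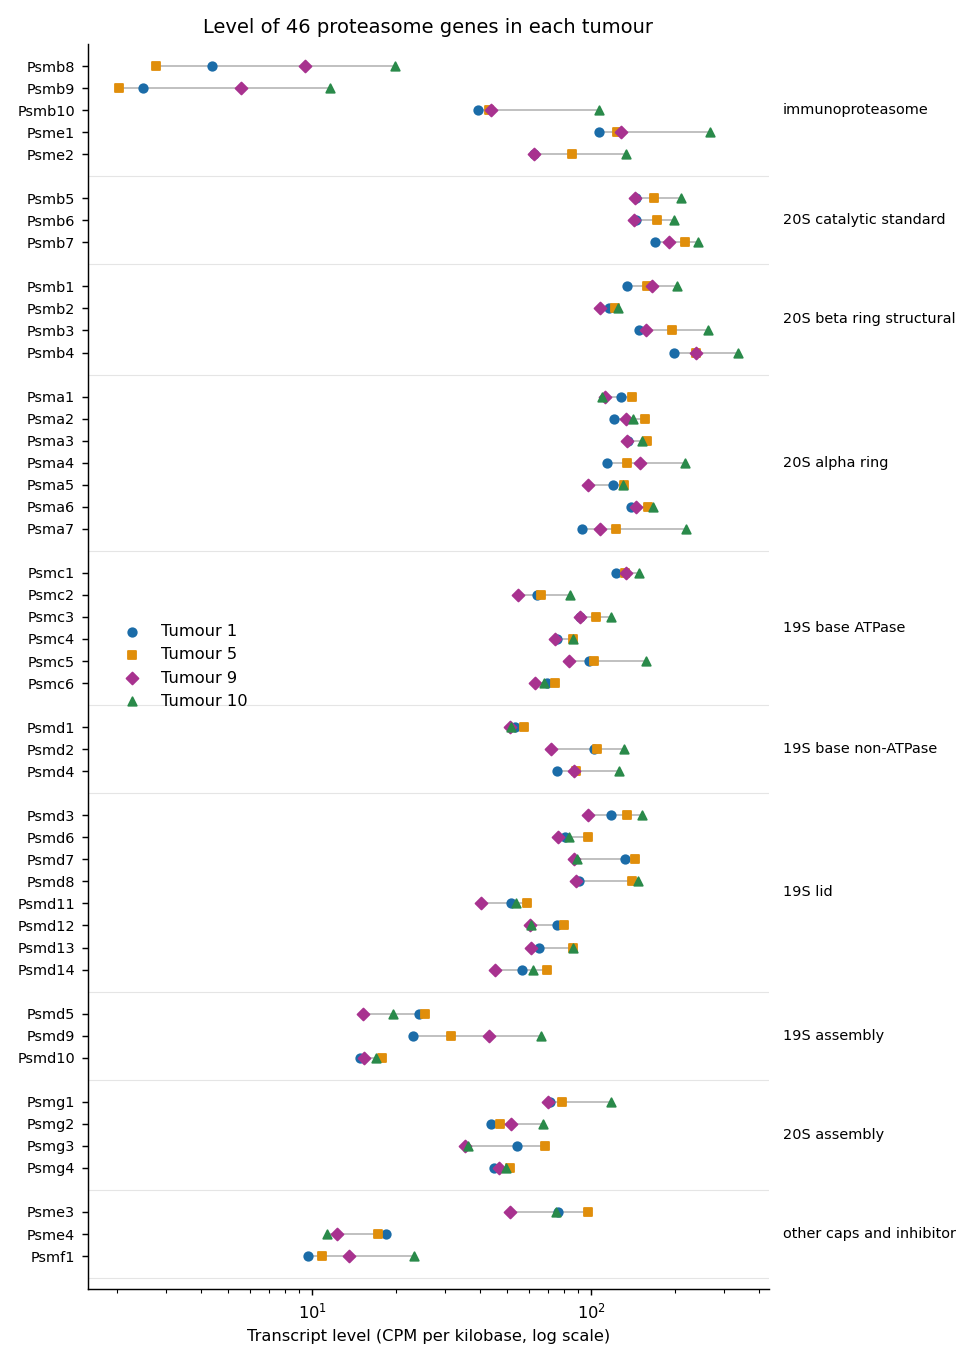
Level of the 46 expressed proteasome genes in each tumour, in CPM per kilobase on a log axis, with genes grouped by role and 1 marker per tumour. Psmb8 and Psmb9 stand far to the left with wide lines, Psmb4 has the highest level, and all 5 immunoproteasome genes have tumour 10 as their highest marker.

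All 46 expressed members varied between tumours beyond counting noise (Poisson chi-square test, adjusted p under 0.05), and so did 98.7% of all expressed genes, so this says nothing particular about them. With 5% of technical variation added to the noise, 40 of 46 members passed, beside 94.1% of all genes. The 6 that did not were Psmb2, Psmc1, Psmc6, Psmd1, Psmd10 and Psmg4. The size of the spread differed more. An SD of log2 CPM of at least 1 was reached by 2 of 46 members, Psmb8 (1.24) and Psmb9 (1.14), beside 16.6% of expressed genes. That is 2 of 5 immunoproteasome and 0 of 41 standard genes, and without tumour 10 it is 0 of 46 members. A highest tumour of at least 2 times the lowest was seen in 8 members, the 5 immunoproteasome genes with Psma7, Psmd9 and Psmf1, beside 49.9% of all genes.

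As a set, the immunoproteasome varied more than the rest of the proteasome. Its median SD was 0.68 log2 units, against 0.26 for the standard members, 0.45 for all expressed genes and 0.35 for the 6809 expressed genes within the same range of mean CPM as the standard members. None of the 5 immunoproteasome genes had an SD under the all-gene median, against 37 of 41 standard members. Psmb8 and Psmb9 are also the 2 expressed members with the fewest reads, and the part of level in their SD was not tested. Psme1, at a mean of 153 CPM, lay among the standard members in level and had an SD of 0.59.

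**Figure D3:**
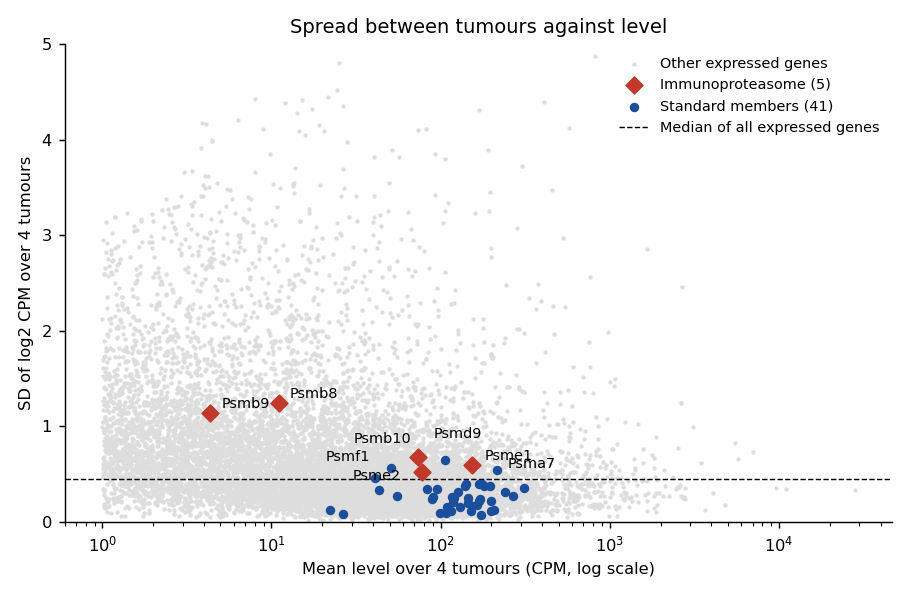
SD of log2 CPM over the 4 tumours (vertical) against mean CPM (horizontal, log axis) for all 13129 expressed genes, with immunoproteasome genes as diamonds, standard members as dark circles and the all-gene median of 0.45 as a dashed line. All 5 diamonds lie above the line, and 37 of 41 circles lie below it.

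By tumour, the standard members split between tumours 5 and 10. Of 41, 23 were highest in tumour 10 and 17 in tumour 5, beside 35.8% and 21.2% of all expressed genes. None was highest in tumour 9 (21.6% of all genes) and 1 in tumour 1 (21.4%). Genes more like the standard members were highest in tumour 10 more often than all genes. This held for 2778 of the 6809 within their range of mean CPM, of which 1714 were highest in tumour 5. It also held for 967 of the 1999 expressed genes in the middle range of their transcript lengths. The median deviation of the standard members was small, -0.12, 0.09, -0.14 and 0.15 log2 units in tumours 1, 5, 9 and 10. These values depend on scaling, most of all that in tumour 10. TMM gave that library a factor of 0.802, against 1.10, 1.03 and 1.10 for tumours 1, 5 and 9, and with total counts alone the median gene would move by -0.32 log2 units there, and by 0.14, 0.04 and 0.13 in tumours 1, 5 and 9. With total counts, the median of the standard members in tumour 10 was -0.17, and 9 of 41 were highest there and 23 in tumour 5. The 5 immunoproteasome genes remained highest in tumour 10, with a median of 0.69.

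Shares of the reads amount to scaling by total counts. In that setting the tumour 10 median was -0.17 for the standard members and -0.30 for all expressed genes. All 48 members together took 0.592, 0.642, 0.565 and 0.576% of the gene counts in tumours 1, 5, 9 and 10, a mean of 0.594 ± 0.0341% (SD, n = 4). The immunoproteasome took 0.0240, 0.0265, 0.0277 and 0.0441%, and the standard members 0.568, 0.616, 0.538 and 0.532%. Tumour 10 had the highest share for the immunoproteasome and the lowest for the standard set.

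Each tumour was also tested against the other 3 with edgeR's quasi-likelihood test, in which the single tumour is assumed to vary like the rest. At a Benjamini-Hochberg adjusted p of 0.05, over all genes and tumours, 0 of 46 members were called in any tumour, beside 0% of all genes. At an unadjusted p of 0.05, 11 members were higher in tumour 10, beside 13.9% of all genes, and 0 were lower, beside 8.23%, while no member was called in tumours 1, 5 or 9. In these 3 tumours the background was 0.427, 0.617 and 3.76% of genes higher, and 0.289, 0.305 and 1.9% lower. The 11 were Psmb10, Psme1, Psme2, Psmb8, Psma7, Psma4, Psmc5, Psmd4, Psmd9, Psmg1 and Psmf1. The share of members was above the background in the upward direction, a difference that was not tested. That list holds all of the immunoproteasome set except Psmb9, so the pooled share does not describe the standard members. The lowest adjusted p was that of Psmb10, 0.201, with a log2 fold change of 1.35 ± 0.21 (SE) for tumour 10 over the others. Psme1 followed at 1.16 ± 0.23 (edgeR adjusted p = 0.272) and Psma7 at 1.03 ± 0.26 (edgeR adjusted p = 0.391). Psmb8 and Psmb9 had larger fold changes, 1.84 ± 0.70 and 1.79 ± 0.75, with edgeR adjusted p-values of 0.656 and 0.731. DESeq2's Wald test called 3 members higher in tumour 10, beside 6.05% of all genes: Psmb10 (adjusted p = 0.000497), Psme1 (0.00533) and Psma7 (0.0424). The limma-voom fit called 0.

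Genes that work beside the proteasome were read from lists. Of 8 subunits and assembly factors with other names, 7 have a row here, and their median SD was 0.23. Pomp, which helps to join the parts of the core, had 88.4, 95.7, 92.1 and 104 CPM in tumours 1, 5, 9 and 10. Shfm1, an older symbol of the small lid subunit Sem1, had 67.5, 88.6, 93.1 and 142 CPM, and Usp14, a cap-bound deubiquitinase, had 95.6, 117, 88.7 and 126 CPM. AI314180, an older symbol of the proteasome adaptor Ecpas, had the largest SD of the list (0.49), with 189.7, 214, 130.5 and 103 CPM.

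Transcripts of the NRF1 pathway, which raises the standard genes when proteasome activity falls, differed little between tumours. The 5 genes of that list had SDs of 0.05 to 0.30 log2 units. The activity of NRF1 was not measured. Nfe2l1, which encodes NRF1, had 114, 99.9, 113 and 90.1 CPM in tumours 1, 5, 9 and 10. Ddi2, the protease that activates NRF1, had 121, 124, 132 and 124 CPM, and Ngly1, the enzyme that removes its sugars, had 22.8, 23.1, 27.6 and 35.4 CPM. Nfe2l2, which encodes NRF2, varied more, at 113, 36.3, 61.2 and 56.2 CPM. Of the NRF2 list of 7 genes, Gclc (glutathione synthesis) had 159, 316, 98.6 and 303 CPM, Txnrd1 had 202, 198, 132 and 176 CPM, and Srxn1 had 7.20, 7.42, 3.07 and 22.5 CPM.

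Upstream of the proteasome, the 15 genes for ubiquitin, its activation and its shuttles had a median SD of 0.27. Rps27a, which encodes ubiquitin fused to a ribosomal protein, had 660.2, 726, 916 and 1252 CPM in tumours 1, 5, 9 and 10. The list held 2 genes with an SD of at least 1. Ubqln2, a shuttle factor, had 191, 259.7, 40.0 and 87.8 CPM, and Uba6, an activating enzyme, had 34.4, 35.2, 9.79 and 10.3 CPM, so both were low in tumours 9 and 10. Myc itself, as mouse transcript, had 4.86, 6.84, 8.58 and 7.40 CPM.

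Downstream, the 10 genes for MHC class I peptide loading had medians of -0.44, -0.83, 0.20 and 0.84 log2 units in tumours 1, 5, 9 and 10, and 7 of 10 were highest in tumour 10. B2m, the class I light chain, had 165, 137, 238 and 469 CPM. Tap1, a subunit of the peptide transporter encoded beside Psmb9, had 5.68, 4.18, 14.0 and 12.7 CPM. Tumour 5 was lowest for both, as it was for Psmb8 and Psmb9. Nlrc5, an activator of class I genes, had 2.92, 0.934, 4.50 and 15.1 CPM, the largest SD of the list (1.63). Calr and Pdia3, chaperones with broader roles, did not share this order: Calr had 776, 795, 528 and 760.2 CPM and Pdia3 had 631, 638, 614 and 706 CPM.

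Regulators of the interferon response were less uniform. Their 11 genes had medians of -0.08, -0.41, 0.33 and 0.19 log2 units in tumours 1, 5, 9 and 10, and 5 were highest in tumour 9 and 3 in tumour 10. Irf1 had 29.8, 19.7, 33.2 and 35.1 CPM, and Stat2 had 40.9, 26.7, 56.99 and 56.94 CPM. In both, which interferon activates or induces, tumour 5 was lowest. Jak1 went the other way, with 106, 127, 74.4 and 71.7 CPM, and Irf8, which myeloid cells express, had 8.30, 6.51, 30.4 and 16.2 CPM.

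Cell type markers did not all follow the immunoproteasome. Markers of leukocytes (6 of 6 expressed) summed to 93.3, 187, 272 and 139 CPM in tumours 1, 5, 9 and 10. In tumour 5, 145 CPM of that sum came from Lcp1 alone, while 4 of the 6 were lowest there, the low tumour of Psmb8 and Psmb9, and the list's median deviations were -0.65, -0.80, 1.36 and 0.024 log2 units. Markers of macrophages (8 of 8) summed to 267, 211, 944 and 394 CPM, and 6 of the 8 were lowest in tumour 5. Neutrophil markers (6 of 6) summed to 10.1, 11.5, 465 and 21.6 CPM. These 3 lists were highest in tumour 9, not in tumour 10. T and NK cell markers (1 of 7 expressed, Cd4) summed to 1.68, 1.80, 5.06 and 3.48 CPM, B cell markers (0 of 4) to 1.36, 0.514, 1.32 and 0.297 CPM, and dendritic cell markers (1 of 5, Itgax) to 4.25, 3.64, 10.8 and 6.36 CPM. In tumour 10, 2.50 CPM of the T and NK cell sum came from Cd4 alone. The median of that list was lowest there, at 0.192, 0.257, 0.409 and 0.149 CPM in tumours 1, 5, 9 and 10. Prf1 was at 0 in tumour 10 and Ms4a1 at 0 in tumour 5. Hepatocyte markers (10 of 10) summed to 17107, 18904, 23414 and 40202 CPM, and 8 of 10 were highest in tumour 10, like the immunoproteasome genes, while markers of stellate cells and fibroblasts (6 of 6) summed to 391, 269.5, 483 and 99.4 CPM. What part these cell types have in the immunoproteasome values was not tested.

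**Figure D4:**
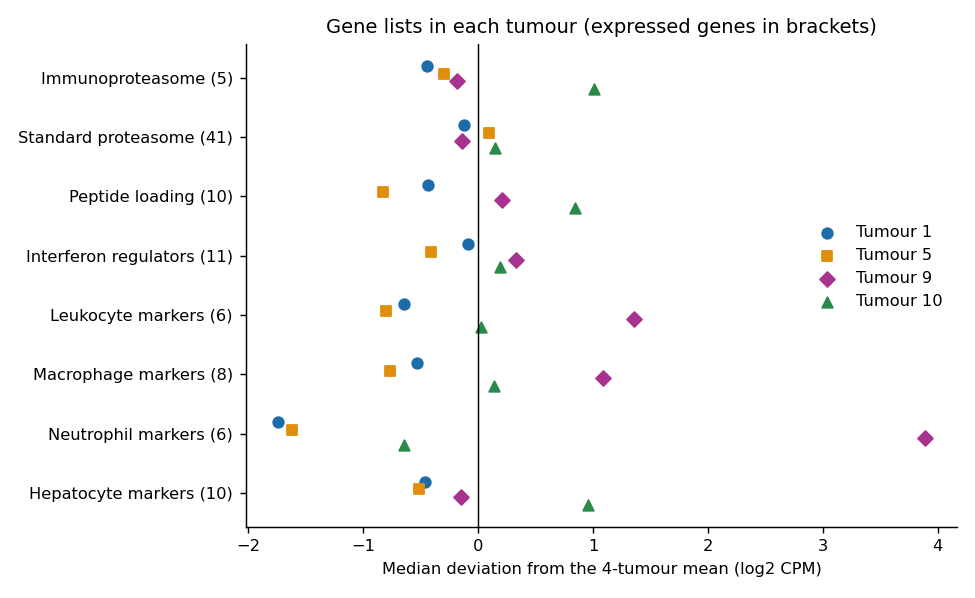
Median over the expressed genes of each list of the deviation from the gene's 4-tumour mean, in log2 CPM, with 1 marker per tumour. The immunoproteasome lies at 1.01 in tumour 10 and below 0 in the other tumours, the standard members stay between -0.14 and 0.15, and the leukocyte, macrophage and neutrophil lists are highest in tumour 9.

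Transcript length also moved with tumour. Across all 13129 expressed genes, Spearman's rho between length and the deviation in tumour 10 was -0.27, so short transcripts tended to be higher there, and across the 41 standard members it was -0.09 (a description across genes of 1 library). In tumours 1, 5 and 9, rho was 0.23, 0.14 and 0.06 for all expressed genes, and 0.31, 0.18 and -0.26 for the standard members. The 20 longer standard members had a median deviation of -0.26 in tumour 9 and 0.13 in tumour 10. The 21 shorter ones had -0.11 and 0.25. Genes of the middle range of the standard members' lengths had a median deviation of 0.20 in tumour 10, beside 0.15 for the standard members. The immunoproteasome, at 1.01, is matched by that range only in part. Psmb8 and Psmb10, at 1223 and 1270 bases, lie within it, with deviations of 1.51 and 1.01 in tumour 10. The transcripts of Psmb9, Psme1 and Psme2, with deviations of 1.44, 0.87 and 0.71 there, are shorter. The part of length in the values of tumours 9 and 10, and in the ratio of cap to core, was not tested.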

How the data were processed

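The TruSeq libraries of the 4 tumours were made from poly-A RNA, per the labels' protocols. The submitters' processing notes name FastQC 0.11.8 and GRCm38. Aligner, counting program and use of strand are not stated in what was used here, so overlapping antisense genes cannot be told apart. The authors' deposited counts are whole reads per RefSeq transcript row. The deposited FPKM, so named per the file headers, gave the transcript lengths, whole within 0.01 bases for 100% of detected rows, and the deposited TPM, which sum to 1000000 per library, served as an alternative level.

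Each symbol was represented by its row with the highest mean count, since reads were counted on more than 1 isoform. Analyses used R 4.3.3, edgeR 4.0.16 (TMM, quasi-likelihood with robust fit), DESeq2 1.42.0 and limma 3.58.1. Log2 CPM used a prior count of 2, and the SE of an edgeR fold change was taken from its F statistic. A Poisson chi-square test per gene was adjusted by Benjamini-Hochberg over all expressed genes, the tests of 1 tumour against 3 over genes and tumours together, and the sign-flip test over 5 pairs. The scripts were tested on simulated data. Any member could be named. Of each partner list, the 2 genes with the highest mean CPM, the 1 with the largest SD and a fixed few were named; Uba6 and Shfm1 were named after their values were seen, and the group of genes at the level of the standard members was added then. Members and lists were chosen with earlier results of these data known. Alternatives were other scalings, filters, prior counts, row sums, tools and leaving out each tumour. The list gene Paaf1 and the promoters of 8 members were not analysed here, and some genes that the naming rule takes are not reported here.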

Additional observations from a re-analysis of the deposited data

Results flagged for a closer look

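Psmb10 was the 1 value, among 46 members and 5 pairs screened, with a tumour far from the others: in log2 CPM, the gap between tumour 10, the highest, and the next tumour was 0.894 of the whole range, above Dixon's 95% critical value for 4 samples. Chance flags about 1 in 20 groups.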

How the results depend on the processing

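Counts of members beyond counting noise stayed between 40 and 47 over the scalings, filters and noise models tried, and between 45 and 46 when each tumour was left out. An SD of at least 1 was found for 2 members, for 1 with total counts alone, and for 0 to 2 when a tumour was left out, with 0 without tumour 10. The test of tumour 10 against the others gave 0 members with edgeR and 3 with DESeq2. Of the pairs, those of the cutting subunits kept their sign throughout. Psme1 minus Psme3 turned to -0.42 in CPM without length (0.72 to 1.22 when a tumour was left out), and Psme2 minus Psme3 to -1.38 in CPM without length and to -0.056 without tumour 10 (-0.056 to 0.32 as each tumour was left out). It was 1.17 with counts summed over rows, where reads on both Psme2 rows are added. The changes without length follow from the longer Psme3 row. The standard members' median in tumour 10 was 0.15, and -0.17 with total counts alone, beside 0.018 and -0.30 for all expressed genes. The cause of the other changes named here was not tested. The other 151 combinations of result and setting stayed within the spread between tumours or on the same side. Among them, the immunoproteasome median reached 0.033 in tumour 5 and 0.10 in tumour 9 when a tumour was left out, and the standard median 0.015 in tumour 1 with total counts. Apart from the 5 pairs of genes compared within each tumour, no paired analysis was possible because the 4 tumours form 1 group. Depth limits Psmb9 most, with 70 reads in tumour 5.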
